A study of Mus musculus with 2 samples.

Results

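The proteasome genes encode the protein-degrading machine that cuts ubiquitin-tagged proteins into short peptides. They were taken as the protein-coding genes of the GENCODE M21 annotation whose symbol begins with Psma to Psmg followed by a number. This rule found 50 of the 21938 protein-coding genes. One of them, Psmc3ip, shares only the symbol: it encodes a partner of meiotic recombinases, and the 49 others are described here. Openness of their promoters was read from DNase-seq, in which the nuclease DNase I cuts accessible DNA in nuclei and the cut sites are sequenced. The tissue was whole urinary bladder of 4-day-old female B6CASTF1/J mice, F1 hybrids that carry 1 genome of C57BL/6J and 1 of CAST/EiJ, untreated as far as the labels say. There were 2 biological replicates in 1 group, labelled as different female pups but filed under the same donor record. Part of the spread between them may therefore be technical. There was no second condition, and no test between groups could be made.

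The proteasome core particle is a barrel of stacked rings. The outer rings are built from alpha subunits (Psma genes) and gate the entry, and the inner rings are built from beta subunits (Psmb genes), of which Psmb5, Psmb6 and Psmb7 carry the standard catalytic sites. A regulatory particle of ATPases (Psmc genes) and non-ATPase subunits (Psmd genes) recognises ubiquitin chains, unfolds the substrate and feeds it into the barrel. Vertebrates replace the catalytic subunits in some cells: Psmb8, Psmb9 and Psmb10 form the immunoproteasome, which is induced by interferon and favours peptides for antigen presentation, Psmb11 is the catalytic subunit of the thymic cortex, and Psma8 is an alpha subunit of male germ cells. Most subunits are needed in every cell, and transcription factors such as Nfe2l1, acting through antioxidant response elements, raise them together when degradation falls behind.

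The deposited footprints, short stretches inside open chromatin that are protected from cutting, fell on recognisable letters in several of these promoters. The first set shows matches to the antioxidant response element, TGACNNNGC, at the only 3 proteasome genes where a match in the tallest promoter peak overlapped a footprint (by at least 1 bp) in both replicates. These 3 were 6.67% of the 45 proteasome genes searched, and the share over all genes searched was near it, at 4.82%. The capitals mark the match, with 15 bases on either side. All sequences are the C57BL/6J reference of GRCm38.p6 read along the strand of the gene, so bases that the CAST/EiJ allele may carry are not shown. The Psmb5 and Psmb6 stretches lie at the 5′ ends of these genes, with the match upstream of the gene, and the Psmd9 stretch lies in an intron 27 bp before an internal start. The Psmd9 match overlaps a match to GGGCGG, bound by SP and KLF factors, and the footprints of both replicates cover both matches.
Psmb5 (chr14:54618019-54618057, minus strand): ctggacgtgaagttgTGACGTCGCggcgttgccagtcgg
Psmb6 (chr11:70525333-70525371, plus strand): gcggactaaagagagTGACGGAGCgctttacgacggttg
Psmd9 (chr5:123228144-123228182, plus strand): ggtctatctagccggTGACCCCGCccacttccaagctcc

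The next set contrasts an immunoproteasome gene with a standard beta subunit. The promoters of Psmb8 and Psmb2 were the only ones among the proteasome genes whose tallest peak held TGACGTCA, the palindrome bound by CREB and ATF factors (capitals). That was 4.44% of the 45 proteasome genes searched, close to the 4.06% of all genes searched. In both genes the match lay upstream of the start and overlapped a footprint in each replicate. The Psmb2 match overlaps a match to CCAAT, bound by NF-Y, and the footprints of both replicates cover both matches. The third line is the CCGGAAG match (capitals, ETS family) in the tallest peak of Psmb10, which lies in an intron and not at the coding start.
Psmb8 (chr17:34197646-34197683, plus strand): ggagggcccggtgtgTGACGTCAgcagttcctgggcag
Psmb2 (chr4:126677592-126677629, plus strand): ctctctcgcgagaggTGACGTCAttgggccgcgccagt
Psmb10 (chr8:105937081-105937117, minus strand): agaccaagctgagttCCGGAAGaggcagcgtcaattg

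The last set gives examples of footprinted elements at genes of the core particle, the regulatory particle and, for Psmg1, a core assembly chaperone: GCGC and GCGC parted by 2 bases of any kind, bound by nuclear respiratory factor 1, or NRF1 (a different protein from Nfe2l1, although both have been called Nrf1), and CCGGAAG. Capitals mark the match, and each of the 7 stretches has its match upstream of the gene.
Psma2 (chr13:14613100-14613139, plus strand): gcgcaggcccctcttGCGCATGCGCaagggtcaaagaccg
Psma3 (chr12:70974530-70974569, plus strand): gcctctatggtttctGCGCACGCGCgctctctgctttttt
Psmc4 (chr7:28050237-28050276, minus strand): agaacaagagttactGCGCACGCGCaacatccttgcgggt
Psmc5 (chr11:106256121-106256160, plus strand): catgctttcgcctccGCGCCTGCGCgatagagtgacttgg
Psmd14 (chr2:61711599-61711638, plus strand): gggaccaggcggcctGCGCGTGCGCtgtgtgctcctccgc
Psmc6 (chr14:45329709-45329745, plus strand): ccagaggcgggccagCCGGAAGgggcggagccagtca
Psmg1 (chr16:95991008-95991044, minus strand): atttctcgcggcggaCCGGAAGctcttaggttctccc

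Peaks came from 96518 called sites in replicate 1 and 122870 in replicate 2, with 217816 and 189794 footprints. A promoter peak is a peak that overlaps the 500 bp on either side of any annotated transcription start site (TSS) of a gene, and its height is the signal the authors deposited, whose scale is not given. The tallest promoter peak stood for the gene. Heights rose in equal steps, of 0.00466 in replicate 1 and 0.00417 in replicate 2, so a height could be read as a number of steps with an exact Poisson 95% interval, if 1 step is 1 counted event; such intervals cover counting error only. The tissue label was checked on marker genes: both replicates had a promoter peak at 5 of 6 smooth muscle markers, where the share over all protein-coding genes was 62.3%. These 5 peaks were mostly low, with median percentiles of height of 29.1 and 27.5, and 1 of them exceeded the median of all genes in both replicates. Of 9 urothelial markers 5 had a promoter peak in both replicates, a share below that of all genes, with median percentiles of height of 19.7 and 13.8, and Upk1a and Trp63 had none in either replicate.

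Nearly every standard proteasome gene had an open promoter in the newborn bladder. A promoter peak was present in both replicates at 46 of the 49 genes (93.9%), where the share over all protein-coding genes was 62.3% (65.4% in replicate 1 and 64.7% in replicate 2, each taken alone). Of the 44 standard genes, 43 had one, and the exception was Psme2b, a gene named after the activator subunit Psme2. Psme2b (chromosome 11, 48945354 to 48946190) had no peak and no base with a listed false discovery rate in its window in either replicate, and whether reads could be placed uniquely there was not tested. All 3 immunoproteasome genes had a peak in both replicates. Psmb11 had none in either, as was the case for 32.2% of all genes, and Psma8 had a peak in replicate 1 alone, as 3.12% of all genes did. No proteasome gene had one in replicate 2 alone, against 2.4% of all genes. The stricter peak lists gave the same 46 genes, against 55% of all genes.

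**Figure D1:**
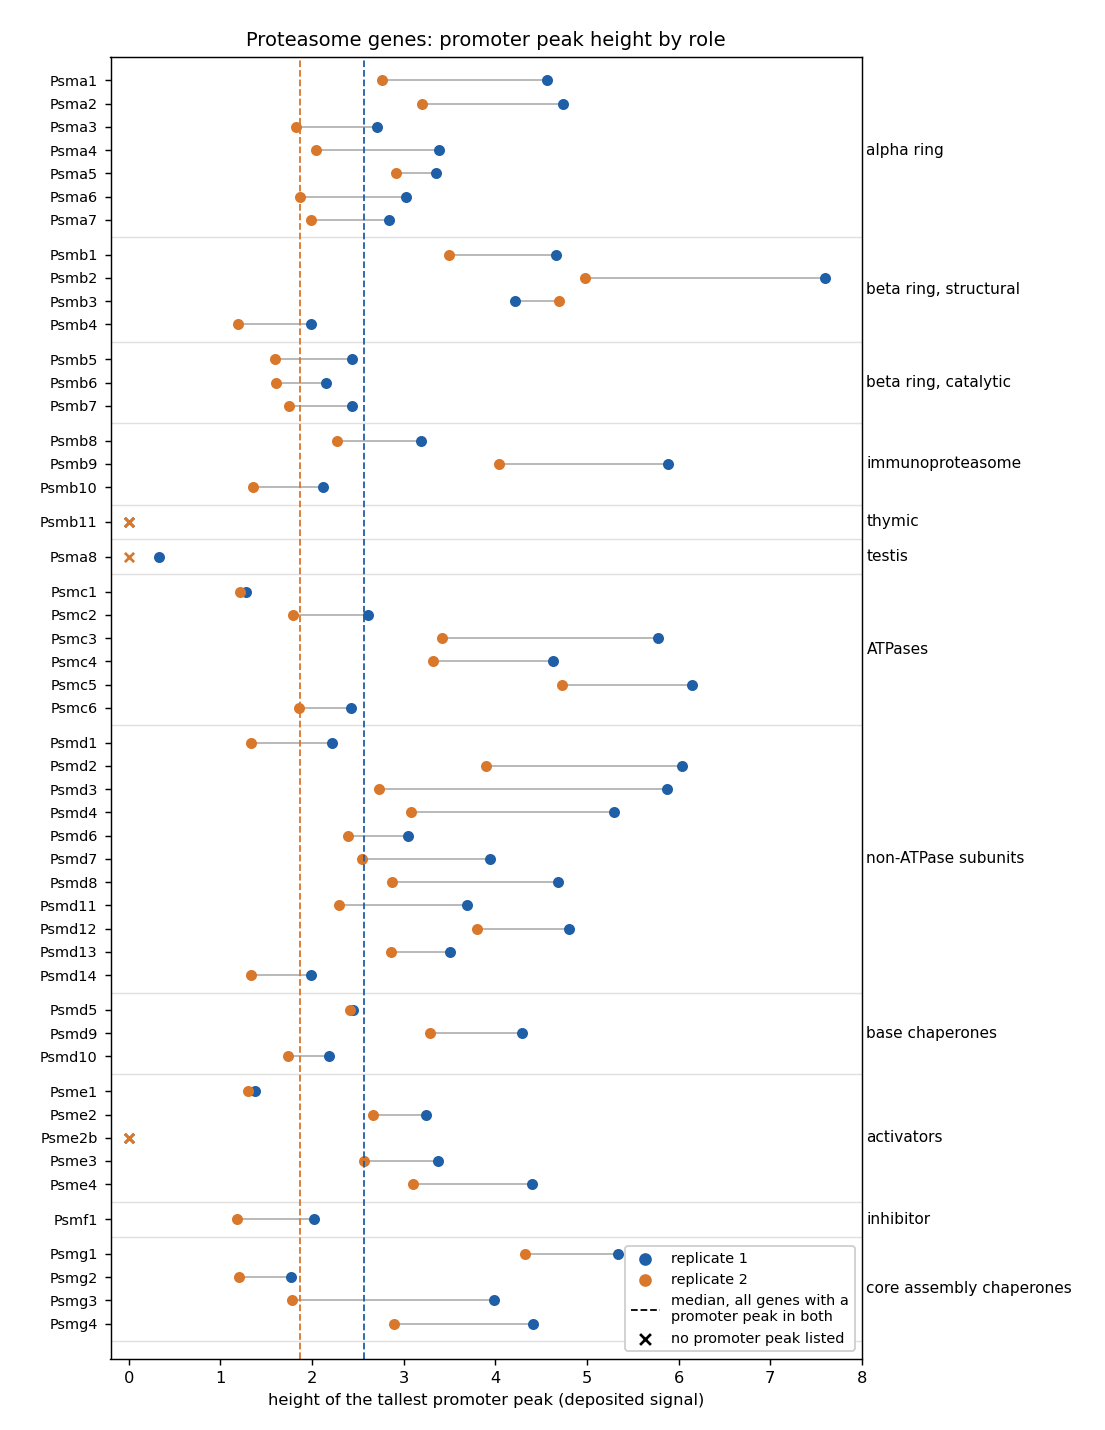
Height of the tallest promoter peak (deposited signal, x axis) of the 49 proteasome genes, grouped by role; blue points are replicate 1, orange points replicate 2, and crosses mark genes with no promoter peak listed. Dashed lines are the medians over all protein-coding genes with a promoter peak in both replicates (2.57 and 1.87); most genes lie to the right of the line of their own colour, and the 3 catalytic genes lie to the left of it in both replicates.

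The open promoters were of middling to large height. Over the 46 genes the median height was 3.38 in replicate 1 (range 1.28 to 7.59) and 2.48 in replicate 2 (range 1.18 to 4.97). Over all genes with a promoter peak in both replicates it was 2.57 and 1.87. Ranked among all genes with a promoter peak, the median proteasome gene stood at percentile 66.3 in replicate 1 and 65.6 in replicate 2, where the median over all genes open in both replicates was 52.4 and 51.9. In both replicates 28 of the 46 genes exceeded the median of all genes, against 47% of all genes. The lowest rank among the 46 was percentile 27.5 in replicate 1 (Psmc1) and 33.1 in replicate 2 (Psmf1). In bulk tissue, an open promoter in few nuclei and a less accessible promoter in all nuclei cannot be told apart.

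The alpha ring genes were all open and lay close together. Psma2 had the tallest promoter of the ring, at 4.74 in replicate 1 and 3.20 in replicate 2, and Psma3 the lowest, at 2.71 and 1.83. The range of the ring within a replicate was narrower than that of the other large groups, and Psma1, Psma2, Psma4, Psma5 and Psma7 lay above the all-gene median in both replicates.

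The structural subunits of the beta ring held the tallest promoter of the whole machine. Psmb2 reached 7.59 in replicate 1 (exact Poisson 95% interval 7.23 to 7.97) and 4.97 in replicate 2 (4.70 to 5.26), at percentiles 98.3 and 96.4. Psmb3 followed at 4.21 and 4.70, and Psmb1 at 4.66 and 3.49. The lowest of these 4 genes was Psmb4, at 1.99 and 1.19, below the all-gene median in both replicates.

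The standard catalytic genes were lower and near one another. Psmb5, which carries the chymotrypsin-like site, had 2.43 and 1.59. Psmb6, with the caspase-like site, had 2.16 and 1.61. Psmb7, with the trypsin-like site, had 2.44 and 1.75. None of the 3 exceeded the all-gene median in either replicate, and their Poisson intervals overlapped within each replicate (1.96 to 2.65 in replicate 1 and 1.44 to 1.93 in replicate 2, from the lowest to the highest bound).

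The ATPases of the regulatory particle spanned most of the range. Psmc5 was the tallest at 6.15 and 4.73, and Psmc3 had 5.77 and 3.42. Psmc1, with 1.28 and 1.21, was the lowest of all 46 genes by the mean of the replicates, 1.24 ± 0.047 (SD, n = 2). Psmc5 and Psmc1 encode subunits of the same ring, and their Poisson intervals did not overlap (5.82 to 6.49 against 1.13 to 1.44 in replicate 1, and 4.46 to 5.02 against 1.07 to 1.36 in replicate 2).

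Among the 11 non-ATPase subunits, 9 exceeded the all-gene median in both replicates. Psmd2, a scaffold that docks ubiquitin shuttles, had 6.03 and 3.90. Psmd4, a ubiquitin receptor, had 5.30 and 3.08. Psmd14, the enzyme that removes the ubiquitin chain before degradation, had the lowest promoter of the group at 1.99 and 1.33, and Psmd1 had 2.22 and 1.33. These last 2 genes were below the all-gene median in both replicates.

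The remaining genes assemble or modify the particle. Of the base chaperones, which escort the ATPase ring during assembly, Psmd9 was the tallest (4.29 and 3.29) and Psmd10 the lowest (2.18 and 1.73). Among the chaperones of core assembly, Psmg1 had 5.34 and 4.32 and Psmg2 had 1.77 and 1.20. The activators cap the core particle without ATPases. Psme4, which encodes the large nuclear activator, had the tallest promoter of this group (4.40 and 3.10). Psme1, an interferon-inducible activator subunit, had one of the lowest of all (1.37 and 1.305). Its partner subunit Psme2 had 3.24 and 2.67, but that peak lay 548 bp upstream at the start of the neighbouring gene Rnf31; the peak at the start of Psme2 itself measured 2.97 and 2.63. The inhibitor Psmf1 had 2.03 and 1.18.

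The order of the genes by height was coarse. Of the 45 neighbouring pairs in the order of mean heights, 34 changed places between the replicates, and in 44 the difference of means was smaller than the SD of the replicates. That SD also holds the lower level of replicate 2, seen at all but 1 of the 46 genes. A shift shared by all genes leaves their order unchanged, so the count of 44 says little about the order. Across the 46 genes, Pearson's r between the replicates was 0.913 and Spearman's rho was 0.921, a description of genes that share both libraries. Across all genes the values were 0.970 and 0.975.

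Heights in replicate 2 were lower than in replicate 1 at all but 1 proteasome gene. The log2 ratio of replicate 2 over replicate 1 had a median of -0.54 (SD 0.25 over the 46 genes), where the median over all genes was -0.41 (SD 0.27). Psmb3 was the exception, with a log2 ratio of 0.16 (95% interval of the counts 0.03 to 0.29); among all genes 6.86% were higher in replicate 2. Psmd5 (-0.02) and Psme1 (-0.07) came next, with counting intervals that spanned equal heights. The largest drops were those of Psmg3, from 3.98 to 1.78 (log2 ratio -1.16, interval -1.33 to -0.99), Psmd3, from 5.88 to 2.73 (-1.11), and Psmf1, from 2.03 to 1.18 (-0.78). With 1 library per replicate and both filed under the same donor record, any difference between animals and one between libraries cannot be told apart.

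The immunoproteasome genes had open promoters in both replicates, and they differed from one another in height. Psmb8 (chromosome 17, 34197721 to 34201454) replaces Psmb5. Its tallest peak, chr17:34197581-34197780 in both replicates, had its centre 40 bp upstream of the gene and heights of 3.18 and 2.27. Psmb8 thus stood above Psmb5 in both replicates, by a ratio of 1.31 (exact conditional binomial 95% interval 1.17 to 1.47) in replicate 1 and 1.43 (1.25 to 1.63) in replicate 2. Psmb9 (chromosome 17, 34181987 to 34187764) replaces Psmb6 and had the tallest immunoproteasome promoter, at 5.88 and 4.04. That was 2.73 times (2.45 to 3.04) and 2.51 times (2.23 to 2.83) the height of Psmb6. Psmb10 (chromosome 8, 105935735 to 105938444) replaces Psmb7 and had 2.12 and 1.36, or 0.872 (0.767 to 0.990) and 0.774 (0.667 to 0.897) of Psmb7. Each interval excludes equal heights, for counting error alone. With all promoter peaks of a gene summed, Psmb10 over Psmb7 was 1.01 in replicate 1 and 0.774 in replicate 2, so the lower height of Psmb10 in replicate 1 rests on taking the tallest peak.

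**Figure D2:**
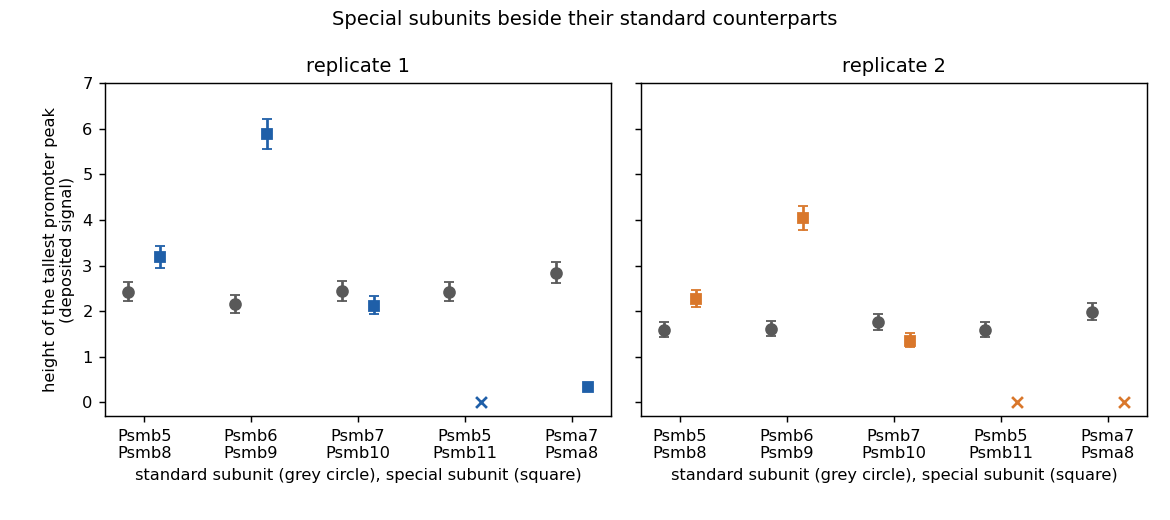
Height of the tallest promoter peak (deposited signal) of each special subunit (coloured square) beside its standard counterpart (grey circle), in replicate 1 (left) and replicate 2 (right); bars are exact Poisson 95% intervals and crosses mark genes without a promoter peak. Psmb9 lies far above Psmb6 in both replicates (5.88 against 2.16 and 4.04 against 1.61), and Psmb11 has no peak.

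Position qualifies these heights. The Psmb9 peak, chr17:34187341-34187560 in replicate 1 and chr17:34187341-34187520 in replicate 2, has its centre in a UTR exon of Psmb9 and is at the same time the tallest promoter peak of Tap1, the peptide transporter gene on the opposite strand, whose first TSS lies 211 bp from that of Psmb9. The height therefore belongs to a shared promoter. The other peak near Psmb9 was lower, at 0.549 in replicate 1 and 0.971 in replicate 2, and these lower peaks did not overlap. Psmb8, next to Tap1 on its other side, kept its own peak, and beyond Psmb8 the Tap2 promoter had 2.80 and 2.14. The RefSeq start of Psmb8, chr17:34198195, lies downstream of the GENCODE start used here, chr17:34197721. The same Psmb8 peak was the tallest within 500 bp of the RefSeq start in both replicates (3.18 and 2.27). The Psmb10 peak, chr8:105936941-105937300 in replicate 1 and chr8:105936941-105937240 in replicate 2, lies in an intron, centred 1323 and 1353 bp downstream of the coding start farthest upstream and near starts of non-coding transcripts of the gene. Within 500 bp of that coding start no peak was listed in either replicate: replicate 1 had 110 bases of 1001 with a listed false discovery rate (lowest 6.05e-08) and replicate 2 had 0. With the starts of protein-coding transcripts alone, a choice made after seeing the data, Psmb10 had no promoter peak and the count of open genes was 45.

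**Figure D3:**
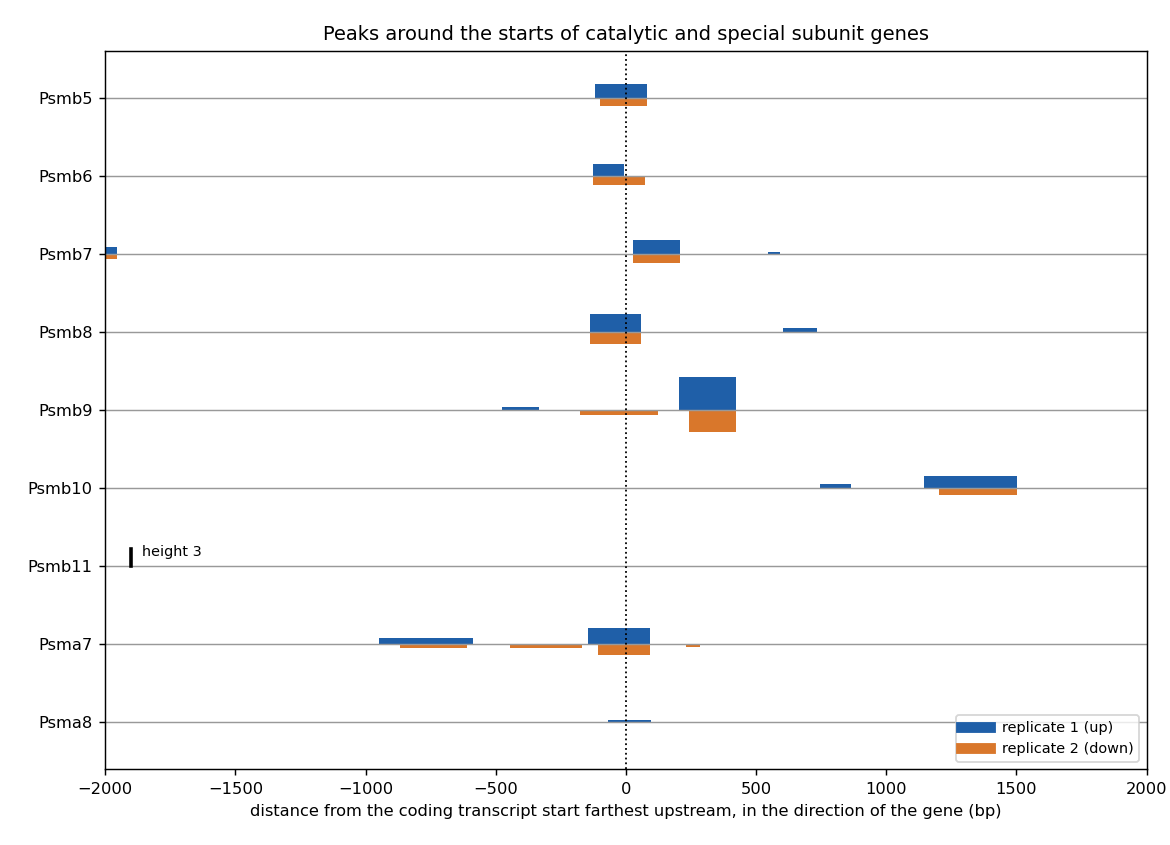
Peaks around the coding start farthest upstream (dotted line, x axis in bp along the gene) of the standard catalytic genes, their immunoproteasome and thymic replacements, and Psma7 with Psma8; bars above each line are replicate 1 and below it replicate 2, with a bar height proportional to the deposited signal (black scale bar: height 3). Psmb5, Psmb6, Psmb7 and Psmb8 have a peak at or beside the start in both replicates, the peaks of Psmb10 begin 744 bp or more downstream, and Psmb11 has none.

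Immunoproteasome genes are strongly expressed in leukocytes, so leukocyte markers are given beside them. Of 9 leukocyte markers, 7 had no promoter peak in either replicate, against 32.2% of all genes, among them Ptprc, the pan-leukocyte antigen, Spi1, the myeloid factor, and Csf1r, the macrophage receptor. The other two, Coro1a (3.05 and 2.14) and Cd68 (0.577 and 0.613), had a peak in both. How much leukocytes in the tissue added to the immunoproteasome peaks was not tested.

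The tissue-restricted subunits looked different. Psmb11 (chromosome 14, 54621433 to 54629556) lies close to Psmb5 on the same chromosome, and it had no peak and no base with a listed false discovery rate in the 1001 bases around its start in either replicate, where Psmb5 had 596 and 287 such bases. The thymic epithelial factor Foxn1 also had no promoter peak, Prss16, a protease of thymic cortical cells, had a low one (0.666 and 0.567), and Ccl25, a chemokine made in thymus and gut, had a tall one (5.49 and 3.82). For 1 of these 2 open markers, the tallest peak also lay within 500 bp of a TSS of another protein-coding gene on the opposite strand. The height of such a peak cannot be assigned to the marker alone. Psma8 (chromosome 18, 14706151 to 14762301) had a peak of 0.326 in replicate 1 (95% interval 0.254 to 0.412), at percentile 1.62 of genes with a promoter peak, with 158 listed bases and a lowest false discovery rate of 0.00911. In replicate 2 it had no peak and no listed base. The replicate 1 peak was 0.115 (0.0883 to 0.147) of that of its standard counterpart Psma7, which had 2.84 and 1.99, and it held no footprint. Of 5 male germ cell markers, Dmc1 (1.38 and 1.01) and Sycp1 (0.345 and 0.421) had a peak in both replicates, Sycp3 (0.559) and Tex101 (0.459) had one in replicate 2 alone, and Prm1 had none in either. Whether replicate 2 missed an open site at Psma8 was not tested.

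The peaks of proteasome genes sat close to the start sites. The centre of the tallest peak lay within 100 bp of a TSS at 42 of 46 genes (91.3%) in replicate 1 and 41 (89.1%) in replicate 2, against 69.4% and 71.0% of all genes open in both replicates. The median distance was 27.5 and 22 bp, against 55 and 53 bp. The peaks were of ordinary width, with medians of 220 and 200 bp against 240 and 220 bp. A single promoter peak was more common than over all genes, with 58.7% and 54.3% of the 46 genes against 46.8% and 44.5%. Some annotated gene starts were not the open ones. The tallest peak of Psmd9 lay 58808 bp downstream of the annotated gene start in replicate 1, that of Psma6 14559 bp, that of Psmd5 4007 bp and that of Psmf1 2845 bp, each at an internal TSS.

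Several proteasome genes shared their peak with a neighbour that is read in the opposite direction. In both replicates the tallest peak of 11 of the 46 genes (23.9%) lay within 500 bp of the TSS of another protein-coding gene on the opposite strand, against 16% of all genes open in both replicates. By the distance between the annotated gene starts, the closest pairs were Psmc2 with the chaperone gene Dnajc2 (32 bp), Psma2 with the mitochondrial ribosomal gene Mrpl32 (75 bp), Psmc5 with Ftsj3 (75 bp), Psma7 with Ss18l1 (76 bp) and Psmb1 with Tbp (137 bp), the gene of the TATA-binding protein. Some pairs have alternative TSSs that lie closer, such as Psmb9 with Tap1 (30 bp). The other pairs were Psmb9 with Tap1, Psmd10 with Atg4a, Psmg2 with Cep76, Psmd13 with Sirt3, Psma4 with AY074887 and Psme2 with Rnf31. The height of such a peak cannot be assigned to 1 of the genes.

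Every one of the 46 open promoters held a footprint in both replicates, against 96.7% of all genes open in both. The median gene held 5 footprints in replicate 1 and 4 in replicate 2, and the mean, 5.39 and 4.41, was below that of genes in the same deciles of peak height, 6.84 and 5.53. These counts cover all promoter peaks of a gene. A single promoter peak was more common among the proteasome genes (58.7% and 54.3%, against 46.8% and 44.5% of all genes open in both replicates). The part of peak number in the lower mean was not tested. A larger part of the footprints in proteasome promoters recurred between the replicates than over all genes. Of the 248 footprints of replicate 1 in these promoters, 57.7% overlapped a replicate 2 footprint (by 1 bp or more). Conversely, 76.4% of the 203 footprints of replicate 2 overlapped one of replicate 1. Over all genes open in both replicates the shares were 48.0% and 63.7%. Unlike the mean counts, these shares were not compared within deciles of height, and the proteasome promoters had the higher median height. The part of height in this difference was not tested. Psme1 was the only open gene with no shared footprint, having 5 in replicate 1 and 3 in replicate 2.

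Sequence matches were counted in the stretch covered by the tallest peak in either replicate for the 45 genes whose tallest peaks overlap between replicates, beside the same count over 13019 genes. Matches on both strands were counted, and matches of different motifs may overlap. The motif with the largest gap in share was CCGGAAG, bound by ETS factors: 20 of 45 genes (44.4%) held it, against 19.6% of all genes, and 8 (17.8% against 7.27%) held it under a footprint in both replicates. In the regulatory particle 12 of 17 genes held it (Psmc1, Psmc2, Psmc3, Psmc6, Psmd2, Psmd4, Psmd6, Psmd7, Psmd11, Psmd12, Psmd13 and Psmd14), and in the core particle 2 of 14 standard subunits (Psma6 and Psmb7). Under a footprint in both replicates it lay at 3 of the 17 and at 1 of the 14. Of the 24 matches at the 20 genes, 37.5% were footprinted in both replicates, and over all genes 33.4% of matches were. Of the 17 regulatory particle genes, Psmd1 was not among the 45 searched, because its tallest peaks did not overlap between replicates. In the window from 250 bp before to 50 bp after the annotated gene start, 32.7% of the 49 proteasome genes held CCGGAAG. The share was 10.8% of all genes and 15.8% of genes open in both replicates. No test was made on these counts.

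**Figure D4:**
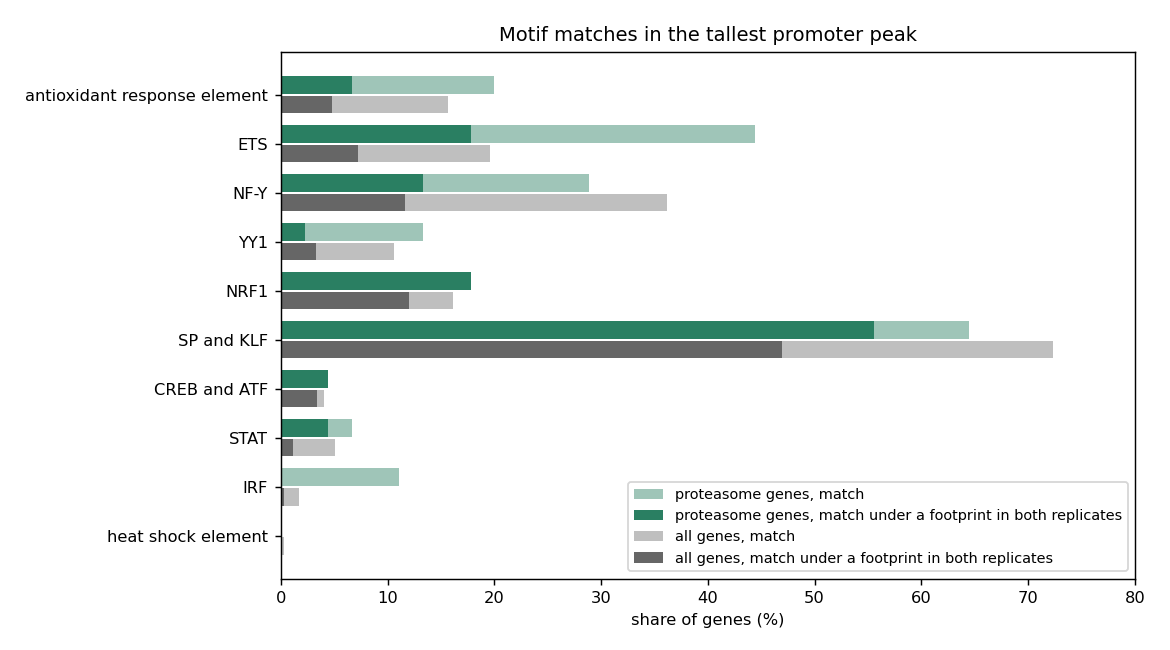
Share of genes (%) with a match to each motif in the tallest promoter peak, for 45 proteasome genes (green) and 13019 genes in all (grey); the dark part of each bar is the share with a match under a footprint in both replicates. ETS shows the widest gap (44.4% against 19.6%), and all 8 proteasome genes with the NRF1 motif have it under a footprint.

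The share of genes with an antioxidant response element depended on the stretch searched. In the tallest peak it was found at 9 of 45 genes (20% against 15.7%): Psma1, Psma3, Psmb2, Psmb5, Psmb6, Psmb10, Psmd3, Psmd9 and Psme4. It lay under a footprint in both replicates at Psmb5, Psmb6 and Psmd9 (6.67% against 4.82%), and in the catalytic genes Psmb5 and Psmb6 its centre was at -16 and -15 bp from the nearest TSS. In the window from 250 bp before to 50 bp after the annotated gene start 12.2% of proteasome genes, 12.5% of all genes and 13.9% of genes open in both replicates held it. Within 500 bp on either side 49.0% of proteasome genes and 33.4% of all genes did. The letters TGACNNNGC are a short form of the element.

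The motif of nuclear respiratory factor 1 occurred at 8 genes (17.8% against 16.1% of all genes). At these 8 it also lay under a footprint in both replicates, so that 17.8% of the 45 genes held it footprinted, against 12% of all genes. Of the 10 matches at these 8 genes, 8 were footprinted, and over all genes 71.3% of matches were. These were 4 of the 7 alpha ring genes (Psma2, Psma3, Psma4 and Psma5), the ATPases Psmc4 and Psmc5, the deubiquitinase Psmd14 and the chaperone Psmg1. No standard beta subunit held it. GGGCGG, bound by SP and KLF factors, occurred at 29 genes (64.4% against 72.4%), and 70.9% of its matches lay under a footprint in both replicates, against 44.4% over all genes. CCAAT, bound by NF-Y, occurred at 13 genes (28.9% against 36.1%) and ATGGCGG, bound by YY1, at 6 (13.3% against 10.6%).

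The motifs of factors that act in the interferon response were counted next. The motif of IRF factors, GAAA and GAAA parted by 2 bases, occurred at 5 genes (11.1% against 1.74%), namely Psmb3, Psmd4, Psmd7, Psme1 and Psmg4, at none of them under a footprint in both replicates, and at 0 of the 3 immunoproteasome genes, too few to read against the share over all genes. TTCNNNGAA, bound by STAT factors, occurred at 3 genes (6.67% against 5.08%). It was footprinted in both replicates at Psmb8, 9 bp after the nearest GENCODE TSS, and at Psmd2. TGACGTCA occurred at 2 genes, Psmb2 and Psmb8 (4.44% against 4.06%). The heat shock element, GAA, TTC and GAA with 2 bases between each, occurred at 0 of 45 (0.269% of all genes). An absent match says only that these letters were not in the stretch searched.

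Base composition was near that of other open promoters. In the tallest peak of replicate 1 the median GC content was 62.8%, against 66% for all genes open in both replicates. The CpG observed-to-expected ratio was 0.856 against 0.826. The 300 bases around the annotated gene start, which is not the open start of every gene, had a median GC content of 55% over the 49 genes (range 41% to 75%). It was 59.8% for all genes open in both replicates and 55% for all protein-coding genes. The CpG ratio there was 0.753, against 0.730 and 0.525.

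Inside the gene bodies, away from the promoter windows, 5 of the 49 genes (10.2%) held a peak that overlapped between the replicates: Psma2, Psma6, Psmc2, Psmd1 and Psmd9. Over all protein-coding genes the share was 30.8%, and the median gene length was 17425 bp against 11763 bp for the proteasome genes; the part of length in this difference was not tested. The tallest were in Psma2 (3.14 and 2.89), Psmc2 (3.08 and 2.70) and Psmd9 (2.85 and 2.33), so the inner peak of Psmc2 exceeded its promoter peak (2.61 and 1.79) in both replicates.

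Genes that work with the proteasome had open promoters throughout the lists, where the share of all protein-coding genes open in both replicates was 62.3%. All 14 regulators and partners matched to the annotation had one, the tallest being Zfand5, a proteasome-binding activator (6.65 and 4.39), Nfe2l2, the oxidative stress factor (5.69 and 3.80), and Uchl5, a deubiquitinase of the regulatory particle (5.36 and 4.11). All 14 genes of ubiquitin supply and delivery had one, led by the shuttle Rad23b (9.35 and 6.05), the unfoldase Vcp (7.53 and 5.62) and the polyubiquitin gene Ubb (5.24 and 5.09). All 10 genes of class I antigen presentation had one too, led by the heavy chain H2-D1 (5.44 and 4.51), Tap1 through the peak it shares with Psmb9, and the interferon factor Irf1 (3.59 and 3.33). Nlrc5, the class I transactivator, was the lowest of these 10 at 0.871 and 0.771.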

How the data were processed

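Each of the 2 DNase-seq samples had 5 files, whose positions refer to mm10 per the labels. The authors called peaks, false discovery rates and footprints in each sample alone from its filtered alignments, per the deposited description files. For the aligner, the callers, their versions and cut-offs, nothing is stated: not given in the sources used here. Peak height, as deposited, is a signal of unstated scale. The deposited rate lists give a q-value per stretch of bases up to 0.05, and the p-value column of the deposited footprint lists holds 0.01 throughout. The longer peak list of each sample was used; the shorter served as the stricter list. Genes and TSSs were those of GENCODE M21 without the mitochondrial genome, and 14 of 15 listed regulators were matched by symbol. Height percentiles are ranks among genes with a promoter peak in that replicate. Ratios carry exact conditional binomial intervals and heights exact Poisson 95% intervals, in steps (tolerance 0.02 steps). Whole-read depth is unknown. Sequences are from RefSeq GRCm38.p6, read by a script from the genome; the RefSeq promoter table held 42 of the 50 symbols, and its 45 sequences equalled the genome. Computations used Python 3.11.15, numpy 2.4.6, pandas 2.3.3 and scipy 1.17.1, were tested on simulated data, and figures used matplotlib 3.10.9. The members, lists and motifs were chosen with earlier results of these data known, and no test was run over them. Every gene is placed by role; values are given for the special subunits and their counterparts, the extremes of each role, genes without a peak in both replicates and the extremes of the replicate ratio, and a few others were chosen after their values were seen.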

Additional observations from a re-analysis of the deposited data

How the results depend on the processing

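The count of genes with a promoter peak in both replicates, the count without any, the median height and the footprint count moved by no more than the stated limits (1.5 times for counts, 1 SD between replicates for values) with the stricter list, windows of 250 or 1000 bp, peak centres, coding transcript starts and each replicate alone, as far as each was run. For a mean of 2 replicates, leaving 1 out cannot move the value by 1 SD, so each replicate alone was no check of such values. A count of 46 among 49 genes also could not rise 1.5 times, and only a fall could have passed that limit. The count without any rose from 2 to 3 with the stricter list, with coding transcript starts and without replicate 1. The median percentile was 61.7 with the stricter list and 66.5 with coding transcript starts, an alternative chosen after seeing the data, under which Psmb10 had no ratio. Summing all promoter peaks in place of the tallest moved Psmb10 over Psmb7 to 0.894 (1.01 in replicate 1 and 0.774 in replicate 2), Psmb8 over Psmb5 to 1.498 and Psmb9 over Psmb6 to 3.05, and moved the heights of 12 of 46 genes. Motif counts of 49 genes grew with the window: within 500 bp on either side of the gene start, IRF was at 12, NF-Y at 30, STAT at 15, YY1 at 12 and the antioxidant response element at 24, where the window from 250 bp before to 50 bp after it gave 5, 18, 6, 2 and 6. The shares in the wider window were 24.5%, 61.2%, 30.6%, 24.5% and 49.0%, against 11%, 70.6%, 24.8%, 13.2% and 33.4% of all genes. In the tallest peak of replicate 1, YY1 was at 6 of 47 genes (12.8%) and STAT at 4 (8.51%). Over all genes with a promoter peak in that replicate the shares were 9.60% and 4.63%. In the tallest peak of replicate 2, YY1 was at 4 of 46 genes (8.70%) and STAT at 3 (6.52%), against 8.32% and 4.09%. A wider window holds more bases; causes were otherwise not tested. No paired analysis was possible because both samples form a single group. With unknown read depth, a missing peak is not shown to be a closed promoter.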

Other observations

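Psmc3ip, which shares only its symbol with the proteasome genes, had a promoter peak of 3.88 in replicate 1 and 2.63 in replicate 2. Within the Psma8 gene, replicate 2 had 8 peaks between 0.0625 and 0.179 high that replicate 1 lacked. Within Psmd9, replicate 2 had 23 peaks away from the promoter windows and replicate 1 had 4. Within Psmg1, replicate 1 had 8 such peaks, the tallest 0.279, and replicate 2 had 0.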
